A study of Mus musculus with 29 samples.

Results

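Expression of 6 genes of macrophages and neutrophils was followed through 29 single-cell libraries of mouse brain and blood after stroke: Arg1, Chil3, Nos2, Fn1, Saa3 and Wfdc17. They were chosen by name, and all 6 are listed among the 19704 genes of the young brain tables, the 27514 of the aged brain tables and the 16623 of the blood tables. The middle cerebral artery of C57BL/6J mice was closed for a time and reopened, while sham mice had surgery without it. In young males (8 to 10 weeks) the brain was sampled in 12 libraries, 4 each for day 2 after sham, day 2 after stroke and day 14 after stroke, and the blood in 4, 4 and 3. In aged males and females (17 to 20 months) only the brain was sampled, with 2, 3 and 1 libraries for those groups. Each brain library pools 4 to 5 hemispheres, from which endothelial cells, microglia and CD45-high leukocytes were sorted after papain digestion with transcription blockers such as actinomycin D. Each blood library pools leukocytes of 2 mice. Sham was sampled at day 2 alone and serves as control for both stroke times, so time since surgery and stroke cannot be told apart at day 14.

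Macrophages respond to tissue damage along a range that is often described by 2 poles. Alternative activation, driven by interleukins 4 and 13, is read in mice from Arg1 and Chil3. Arg1 encodes arginase 1, which turns arginine into ornithine and urea, and Nos2 encodes the inducible nitric oxide synthase, which uses the same arginine and marks classical activation. Chil3 encodes Ym1, a chitinase-like lectin secreted by monocytes, macrophages and neutrophils. Saa3 encodes a serum amyloid A protein made locally by macrophages and other cells during inflammation. Wfdc17 encodes a small secreted protein with a whey acidic protein domain, also called activated microglia/macrophage WAP domain protein. Fn1 encodes fibronectin, an extracellular matrix protein that binds integrins.

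In GENCODE M21 on GRCm38, all 6 are protein-coding genes: Arg1 at chr10:24915221-24927484 (minus strand), Chil3 at chr3:106147554-106167564 (minus), Nos2 at chr11:78920787-78960254 (plus), Fn1 at chr1:71585520-71653200 (minus), Saa3 at chr7:46711998-46715700 (minus) and Wfdc17 at chr11:83703991-83706268 (plus). RefSeq promoter windows on GRCm38.p6, from 250 bases before to 50 bases after the annotated start, were matched for 3 of the 6. They are shown because the other members had no promoter entry. These 3 genes had their lowest mean level at day 14 in young monocyte-derived cells, described below, as did Fn1. The windows lie at chr3:106167515-106167814 (minus) for Chil3, chr7:46715627-46715926 (minus) for Saa3 and chr11:83703806-83704105 (plus) for Wfdc17. Positions are counted from the RefSeq start, which for Saa3 and Wfdc17 lies within the GENCODE gene and not at its first base. Capitals mark matches to 3 motifs, searched on both strands.
Chil3: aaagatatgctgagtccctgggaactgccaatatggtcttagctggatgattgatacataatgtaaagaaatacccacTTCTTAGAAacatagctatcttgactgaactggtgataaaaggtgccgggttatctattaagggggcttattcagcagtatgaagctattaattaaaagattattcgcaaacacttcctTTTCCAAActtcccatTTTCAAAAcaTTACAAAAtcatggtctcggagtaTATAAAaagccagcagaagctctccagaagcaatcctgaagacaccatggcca
Saa3: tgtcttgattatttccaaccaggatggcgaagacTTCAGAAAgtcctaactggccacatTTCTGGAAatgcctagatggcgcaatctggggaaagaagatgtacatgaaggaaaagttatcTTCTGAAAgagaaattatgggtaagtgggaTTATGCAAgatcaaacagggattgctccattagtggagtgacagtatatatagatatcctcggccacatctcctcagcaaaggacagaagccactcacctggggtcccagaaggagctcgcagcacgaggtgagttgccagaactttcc
Wfdc17: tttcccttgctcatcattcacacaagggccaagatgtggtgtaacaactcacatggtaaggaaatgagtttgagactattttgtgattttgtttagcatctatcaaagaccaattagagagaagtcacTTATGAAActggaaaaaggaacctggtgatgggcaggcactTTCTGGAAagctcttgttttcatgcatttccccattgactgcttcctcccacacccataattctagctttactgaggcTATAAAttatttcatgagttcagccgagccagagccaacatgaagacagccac
The C/EBP motif TTNNGNAA matched 3 times in the Chil3 window, 4 times in the Saa3 window and 2 times in the Wfdc17 window, and it occurs in 40.7% of 32851 mouse promoter windows of the same length. The STAT motif TTCNNNGAA matched once, in Chil3, with its first base at -172 from the annotated start, and is held by 8.3% of windows. The TATA motif TATAAA matched once each in Chil3 and Wfdc17, with its first base at -3 in both, and is held by 13.6% of windows. No match was found for the AP-1 motif TGANTCA, the NF-kB motif (GGG and CCC, 4 bases apart) or the hypoxia response motif ACGTG, which 7.81%, 11.9% and 19.6% of windows hold. The matches did not overlap each other, and a match is only a run of letters.

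Transcripts were counted by Drop-seq, which captures single cells with barcoded beads in droplets and reads the end of the transcript. The 29 libraries held 106977 cells and 819438 to 5855047 counts each, and the median cell had 321 to 1363 counts, depending on the library. Every deposited cell was kept and no doublet caller was run. How doublets were treated before deposit is not given in the sources used here, and their part in values of single cells was not tested. Of 406 library pairs, 231 shared a cell barcode, at most 7 barcodes per pair. Levels are given as CPM, the count of a gene scaled to the total of all counts summed over the cells of a deposited cell type in a library, for libraries with at least 20 such cells, as mean ± SD over libraries. A CPM of summed cells does not tell fewer positive cells from less RNA per cell. The deposited codes were checked against marker lists. The monocyte list was the highest in the brain code MdC (5594 CPM per gene, next list 147) and the blood code Mo, the neutrophil list in the brain code Gran and the blood code Neu, the microglial list in Mg and the endothelial list in EC. MdC are called monocyte-derived cells below on that basis. In BAM the monocyte list (2557) lay above the border macrophage list (1806), and in brain DC (1061) above the dendritic list (236), so both are named by their codes alone. The young brain libraries fall into 5 with lower-numbered and 7 with higher-numbered library codes in the deposited metadata, and both sets hold each of the 3 young brain groups.

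The map of levels by cell type shows that the 6 genes did not share 1 pattern. In young mice at day 2 after stroke, Arg1 and Chil3 were highest in monocyte-derived cells among brain types, Saa3 in BAM and monocyte-derived cells, Wfdc17 in granulocytes, and Fn1 in endothelial and monocyte-derived cells. Nos2 was at or near 0 in most types.

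**Figure D1:**
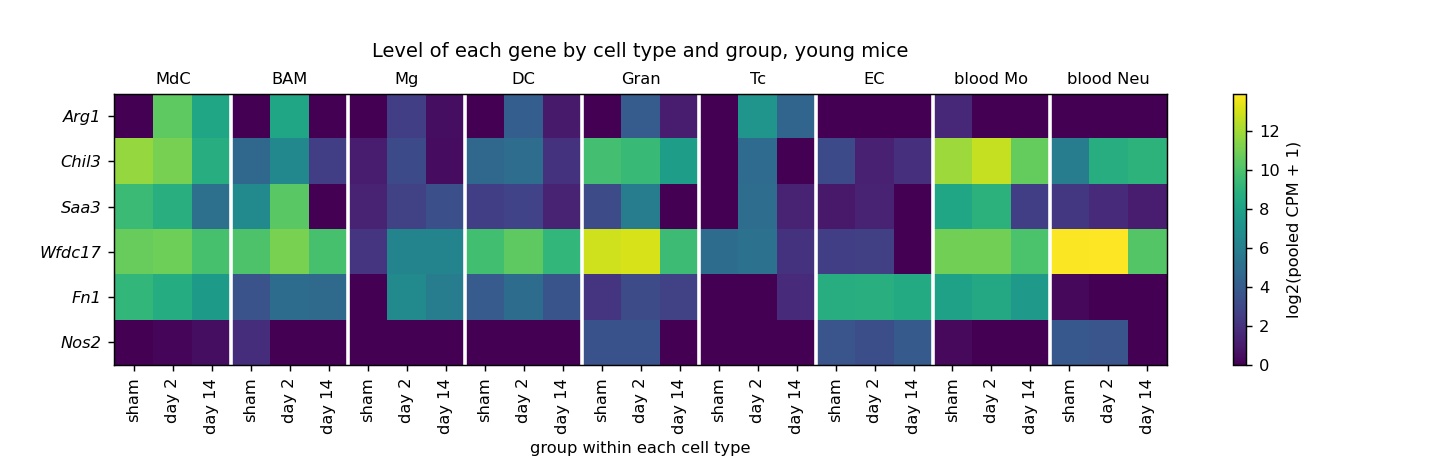
Pooled level of each gene (rows) as log2(CPM + 1) in 7 brain and 2 blood cell types (blocks), each with sham, day 2 and day 14 columns, in young mice. Darker colours are lower, and colours are to be read along a row. Arg1 is darkest in the brain sham columns, and Wfdc17 is darker at day 14 than in sham in Gran and blood Neu.

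In young mice 1 of the 6 genes rose (Arg1) and 0 fell in monocyte-derived cells at day 2 against sham, out of 5 tested, where 6.71% of 8080 genes were called. Calls are at an adjusted p under 0.05 in edgeR's quasi-likelihood test of summed counts, adjusted over all genes tested. At day 14 against sham, 1 rose (Arg1) and 2 fell (Chil3 and Saa3), with 5.15% of genes called, and between day 14 and day 2, 0 rose and 3 fell (Arg1, Chil3 and Saa3), with 1.79% called. The 2 stroke comparisons share the sham libraries, and all 3 come from 1 fit. The p-values measure the spread between pooled libraries. Against sham, the all-gene median was 0.29 at day 2 and 0.28 at day 14, and -0.13 and -0.11 with library size alone, so small differences from sham shift with the scaling.

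In young monocyte-derived cells Arg1 was not detected in sham and was present after stroke. It was at 0 CPM in all 4 sham libraries, at 913, 2110, 1313 and 1648 CPM at day 2 (1496 ± 508, n = 4), and at 155, 129, 608 and 178 CPM at day 14 (267 ± 228, n = 4). The 3 groups did not overlap. Against sham, Arg1 rose at least 106-fold at day 2 (adjusted p = 3.99e-04) and at least 22.8-fold at day 14 (adjusted p = 0.00337), with the bound set by a floor of 3 counts over the sham group. These 4 sham libraries held 318 such cells, and without sham replicate 1, the largest of them, the bounds were 53.8 and 11.6. Without day 14 replicate 3 the bound at day 14 was 11.7. Between day 2 and day 14, Arg1 fell by 2.51 on the log2 scale (SE 0.51, adjusted p = 0.0291). That last call did not hold when any of 5 libraries was left out (replicates 1, 2 and 4 of day 14, replicates 3 and 4 of day 2), with an adjusted p of 0.00559 to 0.113 over all 8 omissions, while the log2 difference stayed between -3.33 and -2.32. It was also lost with only the compared groups in the fit (adjusted p = 0.0515). Day 14 replicate 3, at 608 CPM, stood apart from the other day 14 libraries.

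Arg1 was hardly detected in blood monocytes. It was at 0 CPM in all 4 stroke libraries at day 2, all 3 at day 14 and 3 of 4 sham libraries, and at 7.67 CPM in the other. After cells were thinned to 500 counts, 0 of 1210 blood monocytes had a count of Arg1 at day 2. By the limit of 3 counts this allows up to 0.248% of cells with a count at that depth, and it sets no limit on cells that express the gene below detection. Brain monocyte-derived cells exceeded blood monocytes at day 2 by at least 736-fold (adjusted p = 4.02e-06). The bound was 478 without blood replicate 1 and 480 without blood replicate 4. In this comparison 2 of the 5 members tested were called, 1 in each direction, and 24.7% of the 7540 genes tested were called. Tissue and preparation differ together here and cannot be told apart.

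Outside the monocyte-derived cells of young mice, Arg1 at day 2 lay at 203 ± 192 CPM in BAM (n = 4) and at 152 ± 188 in the code Tc (n = 3), which did not differ beyond their spread. The T cell list was the highest in Tc as a whole, but 74.4% of its Arg1 counts at day 2 lay in subtype Tc6, where the T cell gene Cd3e was at 52.0 CPM against 407 to 650 in the other subtypes. Brain NK cells held 61.6 ± 7.52 CPM (n = 2), microglia 44.1 ± 76.6, DC 17.9 ± 10.9 and granulocytes 14.6 ± 13.4 (n = 4 each), and endothelial cells 0 in all 4 libraries. The NK values rest on 0.925 and 1.61 counts in libraries of 24 and 31 NK cells. In BAM the 4 libraries had 19.8, 56.2, 393 and 341 CPM against 0 in all 4 sham and all 4 day 14 libraries. That is at least 37.4-fold above sham, or 17.9-fold without sham replicate 2, and Arg1 was not tested in BAM in the reported fit. It was tested, and called, with no filter on low counts (adjusted p = 4.32e-11) and with at least 50 cells per library (0.00585). The counts lay in few cells: 11 of 95 carried the gene in replicate 3, where 1 cell held 40.3% of its counts, and 10 of 182 in replicate 4, where 5 held 91.6%. In microglia the libraries had 16.4, 1.55, 158 and 0 CPM, and the value of 158 rests on 4.17 counts in a library of 58 microglia. In young mice, every monocyte-derived library at day 2 lay above every library of these other types. In aged mice at day 2 the 2 libraries with enough BAM cells had 0 and 1476 CPM, the latter from 4 of 42 cells and above 2 of the 4 young monocyte-derived libraries, though below all 3 aged ones.

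Nos2 stayed close to the detection limit. In monocyte-derived cells it averaged 0.207 CPM at day 2 and 0.263 CPM at day 14, and it was 0 in sham and in the microglia of all groups. Low levels were read in endothelial cells, at 7.89 ± 9.35 CPM in sham, 8.68 ± 5.83 at day 2 and 7.07 ± 14.1 at day 14 (n = 4 each). Blood neutrophils held 7.88 ± 10.2 CPM in sham, 10.2 ± 7.45 at day 2 and 0 in all 3 libraries at day 14. The highest level was in granulocytes of aged mice at day 2, at 67.7, 46.8 and 113 CPM, from 14.3 counts in all. Nos2 passed the filter on low counts in no comparison and was not tested. The monocyte-derived cells that carried Arg1 at day 2 therefore had almost no Nos2 counts (1.86 in all).

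The other genes of arginine transport and use were examined as a list of 16. At day 2 against sham, 5 of the 11 tested in monocyte-derived cells rose and 0 fell, where 6.71% of all genes were called. The median log2 difference was 1.11 against 0.29 over all 8080 genes. Slc7a7, a cationic amino acid transporter subunit, rose by 4.07 (adjusted p = 0.00361). Gch1, which makes the cofactor of nitric oxide synthases, rose from 52.6 ± 35.1 to 199 ± 67.7 CPM (log2 difference 2.11, adjusted p = 0.0112). Arg2, the mitochondrial arginase, rose from 15.3 to 55.9 CPM (3.08, adjusted p = 0.0202), and Azin1, an activator of polyamine synthesis, by 1.64 (adjusted p = 0.0150). Between day 2 and day 14, 0 of the 11 changed by this test, with a median of -0.56 against 0.04 over all genes.

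Chil3 in young mice was high in sham and low at day 14. In monocyte-derived cells, sham libraries had 3267, 3387, 3835 and 3252 CPM (3435 ± 273), day 2 libraries 1738, 1355, 2120 and 3420 (2158 ± 897), and day 14 libraries 236, 204, 736 and 344 (380 ± 245, n = 4 each). Sham and day 2 overlapped, and day 14 lay below both. Chil3 fell by 2.57 on the log2 scale from day 2 to day 14 (SE 0.44, adjusted p = 0.00778) and by 2.71 from sham to day 14 (SE 0.45, adjusted p = 0.00225). At day 2 against sham the log2 difference was -0.14 (adjusted p = 0.917). Microglial markers in these cells moved too, with a summed level of 6 of 6 detected genes at 0 to 479 CPM in sham, 270 to 702 at day 2 and 289 to 1891 at day 14. The neutrophil list, 6 of 6 detected, lay at 0 to 3404 CPM in sham, 114 to 246 at day 2 and 27.7 to 112 at day 14. The part of these cells in the Chil3 and Wfdc17 levels was not tested.

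Blood monocytes held Chil3 at 2409, 4820, 4291 and 3941 CPM in sham (3865 ± 1036), at 6052, 9041, 3576 and 8673 at day 2 (6836 ± 2548), and at 1650, 1625 and 1486 at day 14 (1587 ± 88.4, n = 3). The day 14 libraries lay below all others, and day 2 overlapped sham. None of the 4 members tested in blood monocytes was called at day 2, nor was any gene (0% of 6706). DESeq2 also called 0, and the unadjusted p was under 0.05 for 189. At day 14 against sham, 0 of 4 were called, with 0.254% of genes called. Chil3 had a log2 difference of -1.29 (SE 0.30, adjusted p = 0.112), and DESeq2 gave an adjusted p of 0.00447. In brain monocyte-derived cells at day 2, Chil3 was below blood monocytes by 1.33 on the log2 scale (SE 0.42, adjusted p = 0.0350). That call was lost without any of 5 single libraries (adjusted p 0.00806 to 0.119 over the omissions), namely blood replicates 1, 2 and 4 and brain replicates 1 and 3, and without the filter (0.120).

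Chil3 shares sequence with Chil4, a near copy: 22.9% of the 30-base windows in the last 500 bases of the Chil3 transcript also occur in Chil4. The Chil4 row held 10.7 CPM in monocyte-derived cells and 21.9 in blood monocytes over all libraries. How reads common to both were assigned is not given in the sources used here, so a part of the Chil3 counts could belong to Chil4. Of the windows at the end of Saa3, 0 were shared with Saa1 or Saa2, and of those of Arg1, 0 with Arg2.

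Saa3 in young monocyte-derived cells was carried by few cells and was lowest at day 14. Sham libraries of monocyte-derived cells had 712, 879, 173 and 1352 CPM (779 ± 487), day 2 libraries 243, 481, 482 and 534 (435 ± 131) and day 14 libraries 20.5, 54.8, 44.2 and 28.4 (36.9 ± 15.5, n = 4 each). All day 14 libraries lay below all others. Saa3 fell by 3.61 from day 2 to day 14 (SE 0.49, adjusted p = 0.00222) and by 3.88 from sham to day 14 (SE 0.51, adjusted p = 4.23e-04). Sham and day 2 overlapped (log2 difference -0.27, adjusted p = 0.827). In sham replicate 1, 14 of 99 cells carried the gene and 1 cell held 51.3% of its counts.

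Saa3 in blood monocytes was also lowest at day 14. It was at 477, 119, 578 and 14.3 CPM in sham, at 1200, 238, 58.6 and 106 at day 2, and at 7.72, 5.48 and 0 at day 14. The day 14 libraries lay below the rest. The log2 difference from sham was -5.82 (SE 1.43, adjusted p = 0.169), which was called by DESeq2 (0.00610) and without sham replicate 4 (0.0364). Brain and blood at day 2 differed by 0.36 (adjusted p = 0.765). Without blood replicate 1, the library at 1200 CPM, the brain was higher by 2.21 (adjusted p = 0.0104).

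BAM had Saa3 at 169, 79.5, 54.7 and 102 CPM in sham, at 242, 231, 269 and 1944 at day 2 and at 0 in all 4 libraries at day 14. Sham and day 2 did not overlap (log2 difference 2.88, SE 0.73, adjusted p = 0.0604), and 0 of the 2 members tested were called, with 2.67% of 1313 genes called. The value of 1944 came from 14 of 182 cells, of which 5 held 79.8% of the counts. Called results were given by at least 50 cells per library (adjusted p = 0.0363), by no filter (1.31e-04) and by leaving out day 2 replicate 1 (0.0495) or 3 (0.0473), and omissions moved the log2 difference down to 1.25. At day 14 against sham, 0 of 2 were called (0.0762% of genes), and Saa3 was at least 6.20-fold lower (adjusted p = 0.694, and 0.0130 with no filter), or 2.81-fold without day 14 replicate 1. Microglia held 1.44 ± 1.83 CPM in sham, 15.9 ± 15.4 at day 2 and 8.82 ± 6.51 at day 14 (n = 4 each). The log2 differences of 2.58 and 2.96 from sham had adjusted p = 0.0994 and 0.0690. The first was called without day 2 replicate 4 (3.32, adjusted p = 0.0234) and the second without day 14 replicate 4 (adjusted p = 0.0472).

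Other acute phase genes and receptors were examined as a list of 13. From day 2 to day 14 in monocyte-derived cells, 2 of 8 tested fell and 0 rose, where 1.79% of all genes were called, with a median log2 difference of -0.97 against 0.04 over all genes. Lcn2, the iron-siderophore binding lipocalin 2, fell from 29.4 ± 14.4 to 1.09 ± 1.32 CPM (adjusted p = 0.00280), and Fpr2, a formyl peptide receptor that also binds serum amyloid A, from 59.6 to 16.2 CPM (adjusted p = 0.0442). Against sham, 4 of 8 fell at day 14 (5.15% of all genes called), among them haptoglobin (Hp), from 1140 ± 262 to 214 ± 49.7 CPM. In blood monocytes 2 of 8 fell at day 14 (0.254% of all genes called): Lcn2 from 123 ± 50.7 CPM to 0 in all 3 libraries (adjusted p = 0.00143), and Hp from 1358 to 671 CPM (adjusted p = 0.0480). Neutrophils carry Lcn2 and Hp too, and the neutrophil markers in monocyte-derived cells were also lower at day 14, as given above for Chil3. In blood monocytes they summed to 47.1 to 258 CPM in sham, with Cxcr2 at 0, and 54.8 to 94.8 at day 14. Their part in the values of Lcn2, Hp and Saa3 was not tested.

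**Figure D2:**
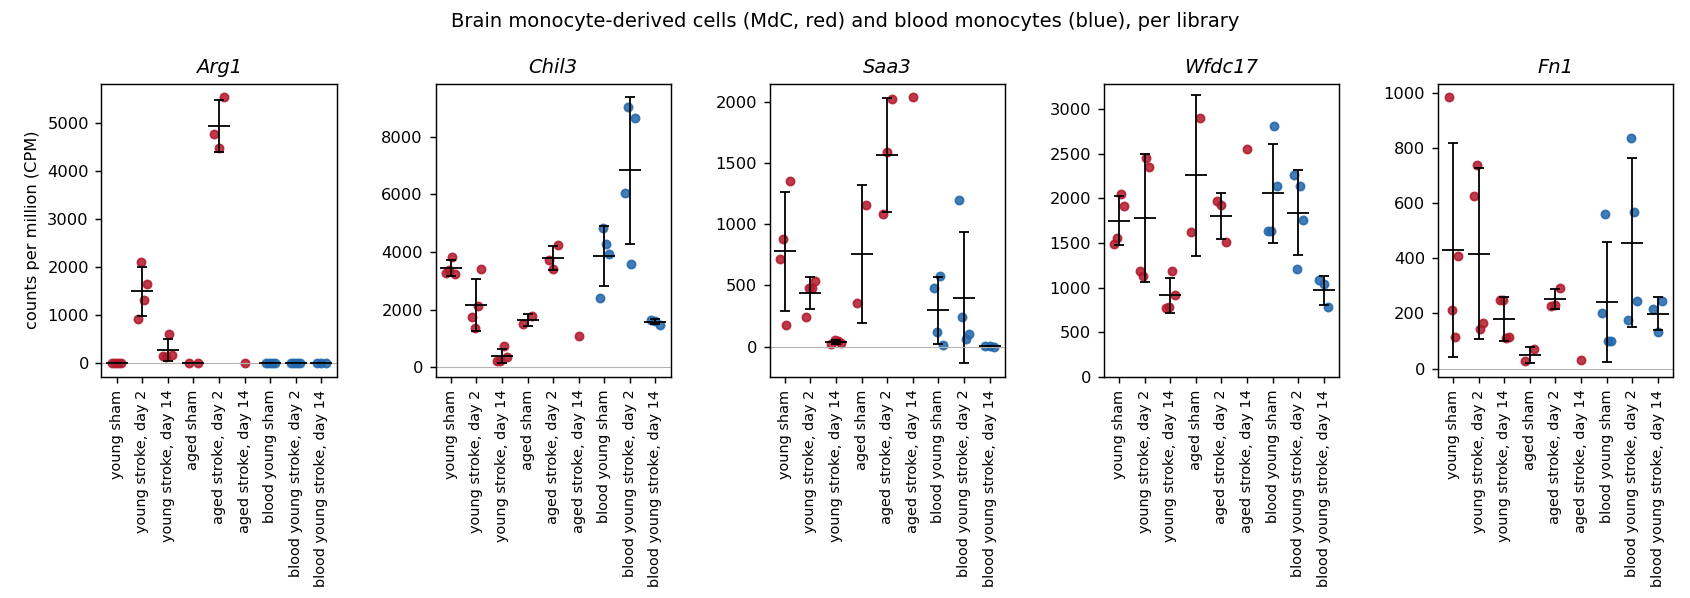
CPM of 5 genes per library (points) in brain monocyte-derived cells (red, 6 groups) and blood monocytes (blue, 3 groups), with mean and SD as bars. Arg1 is above 0 in the young brain stroke libraries (129 to 2110 CPM) and at 0 in sham, while Chil3 and Saa3 are lowest in the young day 14 libraries.

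The authors divided the monocyte-derived cells into 6 subtypes, MdC1 to MdC6, whose levels are described without tests because the subtypes were made from the same cells. Their shares differed between times. MdC3 made up 76.4% of 318 cells in sham, MdC1 and MdC2 31.4% and 28.8% of 7225 at day 2, and MdC6, MdC4 and MdC5 34.0%, 24.7% and 22.4% of 2898 at day 14. MdC1 made up 2.00% of cells at day 14. Arg1 was highest in MdC1 at day 2, at 2336 to 3502 CPM over 4 libraries (2920 ± 636), followed by MdC2 (1104 ± 284) and MdC4 (755 ± 254), which overlapped, and by MdC6 (661 ± 642, n = 3). MdC3, the main sham subtype, had 66.7 ± 49.0 CPM of Arg1 at day 2, far below MdC1 in the same libraries. At day 14 the 58 MdC1 cells pooled to 3102 CPM, but the single library with 20 such cells or more held 68.5 CPM.

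Chil3 had another order. At day 2 it was highest in MdC3 (3803 ± 1387 CPM) and MdC2 (2971 ± 1014), which overlapped, then MdC4 (2538 ± 534) and MdC1 (1469 ± 763), and lowest in MdC5 (322 ± 152). MdC3 held 4296 ± 390 CPM in sham and 1320 ± 863 at day 14. Saa3 at day 2 was at 875 ± 327 CPM in MdC3, 760 ± 662 in MdC6, 521 ± 187 in MdC2, 446 ± 206 in MdC4, 357 ± 159 in MdC1 and 31.6 ± 30.2 in MdC5, and neighbours in this order overlapped down to MdC1. At day 14 every subtype pooled to 50.5 CPM of Saa3 or less. The subtype rich in Arg1 was thus not the richest in Chil3 or Saa3.

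The pooled day 14 minus day 2 differences were divided into a part from changed subtype shares and a part from changed levels within subtypes, as arithmetic on pooled CPM. For Arg1, -796 of -1088 CPM came from shares and -293 from levels, and 5 of 6 subtypes were lower at day 14. For Chil3, -663 of -1736 CPM came from shares and -1074 from levels. For Saa3, shares gave 52.6 and levels -439 of -386 CPM, and for Wfdc17 -91.3 and -830 of -921. All 6 subtypes were lower at day 14 for Chil3, Saa3 and Wfdc17. Fn1 differed by -198 CPM, with -95.1 from shares and -103 from levels, and 4 of 6 subtypes were lower. The Arg1 split rests on 1 library: of the Arg1 counts of MdC1 at day 14, 217 came from 19 cells of replicate 3 and 1.99 from the 27 cells of replicate 1. Without replicate 3, an alternative added after the values were seen, -439 of -1234 CPM came from shares and -795 from levels, and all 6 subtypes were lower for Arg1. Fn1 then had -95.2 from shares and -65.7 from levels, and 2 of 6 subtypes were lower. For Chil3, Saa3 and Wfdc17 the part within subtypes was the larger with and without that library.

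**Figure D3:**
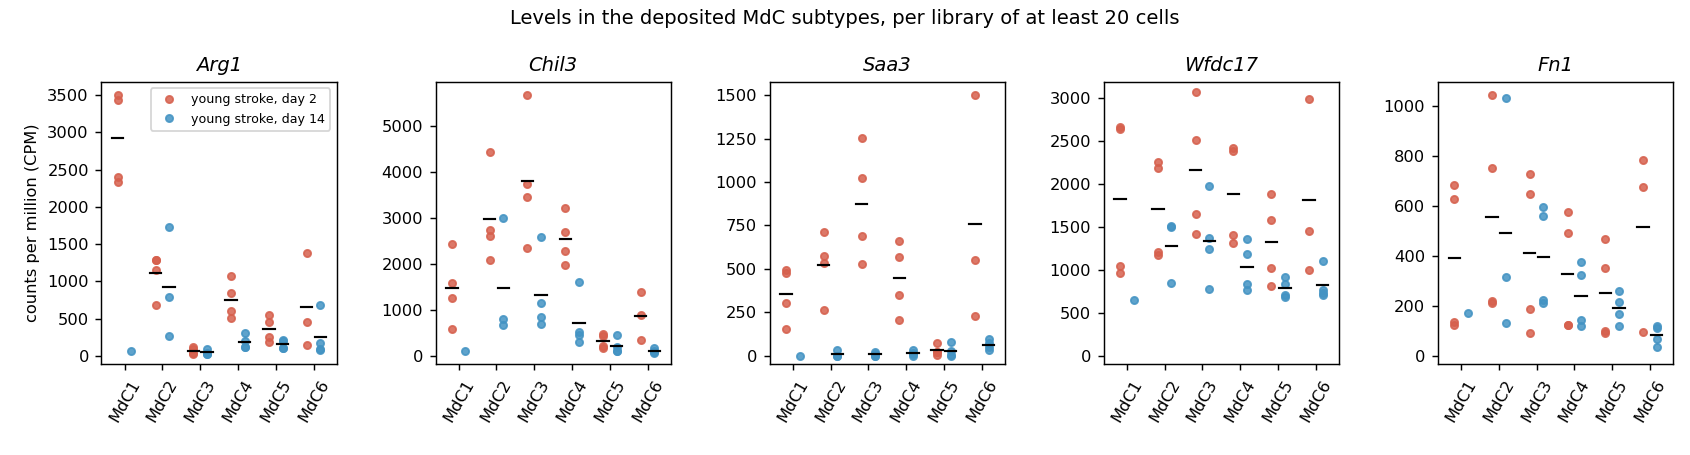
CPM per library (points, libraries of at least 20 cells of the subtype; black line, mean) in the 6 deposited MdC subtypes of young mice at day 2 (red) and day 14 (blue). Arg1 is highest in MdC1 at day 2 (2336 to 3502 CPM), Chil3 and Saa3 are spread over several subtypes, and Saa3 is at 96.4 CPM or less in all day 14 points.

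Shares of cells gave the same contrasts. With each cell thinned to 500 counts, 21.9% of 5741 monocyte-derived cells had Arg1 at day 2 (exact 95% interval 20.8% to 23.0%) and 5.07% of 2227 at day 14 (4.20% to 6.07%). The shares over libraries were 22.7 ± 7.79% and 4.86 ± 2.37%. By values rounded up to whole counts, 0.0699% of 1431 thinned endothelial cells, which should lack the gene, had it at day 2. Their summed Arg1 was 0 CPM in every library, so the endothelial shares include fractions rounded up and are not a measured background. Median depths were 1074 counts in monocyte-derived cells and 552 in endothelial cells, and without thinning the shares were 28.2% and 0.281%. Chil3 was in 52.9% of 187 sham, 42.2% of day 2 and 13.9% of day 14 cells, and in 0.978% of endothelial cells at day 2. Wfdc17 was in 47.6%, 51.3% and 29.7%, against 1.40% of endothelial cells. Saa3 was in 11.2%, 8.24% and 0.853%, against 0.419% of endothelial cells. At day 14, Saa3 was found in 0 of 979 thinned endothelial cells, which allows up to 0.306% of cells with a count. Fractional values were rounded up before thinning, and with rounding to the nearest whole number the mean share of Arg1 at day 2 was 23.1%. Cells under 500 counts were left out, and 5741 of 7225 remained at day 2, and intervals cover counting error only.

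Detection of Chil3 and Saa3 went together within cells at day 2. Both were found in 5.26% of cells, against 3.47% for the product of their shares, and 63.8% of Saa3-positive cells had Chil3 against 42.2% of all cells. Arg1 and Chil3 were found together in 8.15% against a product of 9.24%, and Arg1 and Saa3 in 1.81% against 1.81%. These shares are descriptions of pooled cells from 4 libraries. In aged mice the pair Chil3 and Saa3 was found in 18.0% of 1545 cells, against a product of 12.5%. At day 14 in young mice both were found in 2 of 2227 cells (0.0898%), against a product of 0.119%, with Saa3 in only 19 cells.

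By mean level Wfdc17 was highest in neutrophils in sham and at day 2, and there it fell at day 14. At day 14 the mean in young brain granulocytes lay below the means in BAM and monocyte-derived cells, with overlap. Blood neutrophils held 17499, 13254, 10450 and 10092 CPM in sham (12824 ± 3422), 20551, 9730, 12964 and 10313 at day 2 (13389 ± 4977), and 1849, 794 and 662 at day 14 (1102 ± 650, n = 3). The day 14 libraries lay far below all others, while sham and day 2 overlapped. At day 14 against sham Wfdc17 fell by 3.88 on the log2 scale (SE 0.46, adjusted p = 5.93e-04), and 1 of the 2 members tested was called where 5.99% of 4944 genes were. At day 2, 0 of 2 members and 0% of genes were called, with 209 genes at an unadjusted p under 0.05 and 0 by DESeq2 (Wfdc17 0.06, adjusted p = 0.997). The day 14 neutrophils were mostly of subtype Neu3, with 2111 of 2922 cells. Within each of the 6 deposited subtypes the mean was lower at day 14, for example in Neu1 at 2795 ± 548 CPM (n = 2) against 16569 ± 3489 in sham, and in Neu3 at 975 ± 589 (n = 3) against 8513 ± 3429 (n = 3).

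Brain granulocytes also had less Wfdc17 at day 14. Sham libraries had 8623, 7645, 8204 and 6092 CPM of Wfdc17 (7641 ± 1107), day 2 libraries 3663, 2831, 10211 and 9944 (6662 ± 3959) and day 14 libraries 473, 207, 770 and 973 (606 ± 336, n = 4 each). The brain comparisons of granulocytes were added after these levels were seen. At day 14 against sham Wfdc17 fell by 3.90 (SE 0.50, adjusted p = 1.31e-05), and both members tested were called, where 26.1% of 994 genes were. At day 2, 0 of 2 were called, with 8.35% of genes called (Wfdc17 -0.37, adjusted p = 0.671). Brain granulocytes and blood neutrophils at day 2 differed by -0.98 (SE 0.50, adjusted p = 0.236), with 0 of 2 members and 9.16% of 1976 genes called. In aged brains granulocytes held 4724 and 4659 CPM in sham, 5736, 6457 and 3186 at day 2 and 1033 in the single day 14 library.

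Neutrophil markers differed between the same libraries. Of the 6 markers, all detected, the summed level in brain granulocytes was 222555 to 290324 CPM in sham, 112907 to 204836 at day 2 and 54652 to 70971 at day 14. Retnlg, a marker of mature neutrophils, was at 21828 ± 3950 CPM in sham, 13344 ± 4686 at day 2 and 1339 ± 1010 at day 14. The receptors did not follow it: Csf3r was at 1005 ± 571, 1392 ± 383 and 1523 ± 492 CPM, and Cxcr2 at 3317 ± 676, 2606 ± 323 and 2726 ± 1270. In blood neutrophils the sum was 198530 to 302058 CPM in sham and 112285 to 189942 at day 14, while Cxcr2, the receptor that guides neutrophils to chemokines, was at 4301 ± 807 and 4425 ± 734. Monocyte markers in brain granulocytes summed to 6890 to 9181 CPM in sham, with Ms4a4c at 0, and to 1055 to 3252 at day 14. The part of these shifts in the Wfdc17 and Chil3 levels was not tested.

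Other genes with a whey acidic protein domain fell beside Wfdc17, out of a list of 6. In blood neutrophils at day 14, where 5.99% of all genes were called, 2 of 3 tested fell: Wfdc21 from 6052 ± 2386 to 1934 ± 1208 CPM (adjusted p = 0.0182) and Wfdc18 from 30.0 to 3.29 CPM (adjusted p = 0.00953). In brain granulocytes, where 26.1% of 994 genes were called, 2 of 2 fell, Wfdc21 from 8180 to 135 CPM (adjusted p = 3.14e-06) and Slpi, the secretory leukocyte peptidase inhibitor, by 1.06 on the log2 scale (adjusted p = 0.0371). In monocyte-derived cells Wfdc21 fell by 6.10 and Slpi by 1.60 from day 2 to day 14 (adjusted p = 0.00247 and 0.00761). Over all libraries Wfdc21 was at 32.2 CPM in these cells, 4559 in granulocytes and 6331 in blood neutrophils, and the neutrophil markers in monocyte-derived cells summed to 114 to 246 CPM at day 2 and 27.7 to 112 at day 14. Their part in the Wfdc21 and Slpi values was not tested. Of the end windows of Wfdc17, 0.212% also occur in Wfdc18 and 0 in Wfdc21. Classical activation genes went the other way in brain granulocytes at day 14, with 5 of 6 tested higher than in sham, against the 26.1% of genes called in either direction, among them Tnf (log2 difference 3.62) and Il1b (1.33). The all-gene median of that comparison was -0.06, and 0.44 with library size alone.

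Chil3 in neutrophils varied between libraries. Brain granulocytes had 1322, 789, 194 and 1359 CPM in sham, 550, 179, 124 and 1119 at day 2 and 47.2, 0, 358 and 0 at day 14. Chil3 fell by 2.92 at day 14 against sham (SE 0.82, adjusted p = 0.0134), although the groups overlapped. The value of 358 came from 1 cell, and without that library the fall was 6.09 (adjusted p = 0.00142). In sham, 155 Chil3 counts lay in 60 cells of the deposited subtype Gran4, and 30.7 in 427 cells of Gran1. Gran4 held 1 cell at day 14, and at day 2 Gran2 held 106 counts in 169 cells. The part of subtype shares in the fall was not tested. Blood neutrophils held 58.3 ± 43.1 CPM in sham, 16.7, 387, 86.3 and 986 at day 2 and 57.2, 1014 and 79.3 at day 14. The log2 differences of 2.68 and 2.49 had adjusted p = 0.997 and 0.192, and the latter became -0.24 without the library at 1014 CPM. Subtype Neu6 held 1931 Chil3 counts in 327 cells at day 2 and 640 in 176 cells at day 14. Neu3, with 2111 cells at day 14, held 17.7 counts there. The blood code pre, whose highest list was the neutrophil list, had 3710, 9698 and 1437 CPM in the 1 library of each group with enough cells.

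**Figure D4:**
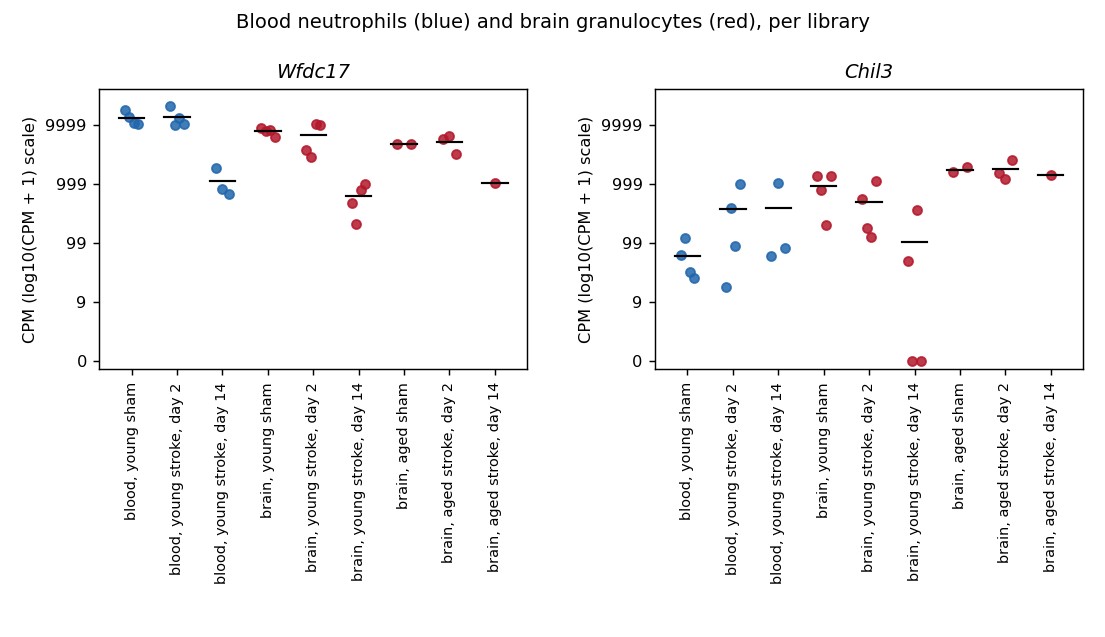
CPM of Wfdc17 and Chil3 per library (points; black line, mean) on a log10(CPM + 1) axis, in blood neutrophils (blue) and brain granulocytes (red). Wfdc17 sits at 662 to 1849 CPM in blood and 207 to 973 CPM in young brain at day 14, below all sham libraries of the same tissue.

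In the reported fits Wfdc17 was not called in monocyte-derived cells, blood monocytes, DC or BAM. Monocyte-derived cells had 1486, 1553, 2048 and 1913 CPM in sham, 1189, 1125, 2459 and 2348 at day 2 and 766, 780, 1186 and 922 at day 14. The day 14 libraries lay below all sham libraries but overlapped day 2, and the log2 differences were -0.46 (SE 0.33, adjusted p = 0.566) and -1.03 (SE 0.33, adjusted p = 0.161). DESeq2 called the second (0.0487). Blood monocytes held 2055 ± 557 CPM in sham (n = 4) and 969 ± 166 at day 14 (n = 3), with a difference of -1.10 (SE 0.28, adjusted p = 0.190) that DESeq2 called (0.0270). In DC the levels were 802 ± 171 CPM in sham, 1401 ± 466 at day 2 and 606 ± 66.0 at day 14 (n = 4 each). Day 2 overlapped neither of the others. In DC 0 of 1 member was called at day 2 against sham (0.80, adjusted p = 0.187, 1.01% of 4365 genes called) or at day 14 against day 2 (-1.20, adjusted p = 0.0555, 0.893% called). The second was called by DESeq2 (0.00249), with the library code as a term (0.0311) and with library size alone (0.0452). In BAM the levels were 870 ± 292 CPM in sham, 1881 ± 1146 at day 2 and 1103 ± 623 at day 14 (n = 4 each). The groups overlapped, with log2 differences from sham of 1.06 (SE 0.48, adjusted p = 0.198) and 0.25 (SE 0.49, adjusted p = 0.984).

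In microglia Wfdc17 and Fn1 rose after stroke. Wfdc17 was at 11.6, 0, 0 and 0 CPM in sham, at 70.0, 97.5, 462 and 72.0 at day 2 and at 87.0, 91.9, 64.1 and 67.3 at day 14. All stroke libraries lay above all sham libraries. Wfdc17 rose by 5.22 at day 2 (SE 0.87, adjusted p = 9.60e-04) and by 5.03 at day 14 (SE 0.84, adjusted p = 0.00131). Without sham replicate 1, the 1 sham library with the gene, sham was at 0 and the rise was at least 102-fold at both times by the floor of 3 counts. Fn1 was at 0 in all 4 sham libraries, at 217, 231, 14.9 and 24.5 CPM at day 2 and at 58.8, 80.9, 71.7 and 26.0 at day 14. It rose at least 183-fold at day 2 (adjusted p = 3.63e-04) and at least 108-fold at day 14 (adjusted p = 9.03e-04), and with only the compared groups in the fit it did not pass the filter at day 2. The bound at day 2 rests on single libraries: it was 115 without day 2 replicate 1 and 409 without day 2 replicate 4. At both times 2 of the 3 members tested rose and 0 fell, in a cell type where 31.4% of 10145 genes were called at day 2 and 15.2% at day 14. Between the stroke times 0 of 3 were called (6.93% of genes).

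Monocyte markers were also higher in these microglia. The summed level of the 6 was 235 to 394 CPM in sham, 520 to 4243 at day 2 and 2130 to 3096 at day 14, with F10 at 0 in sham and at day 14. In monocyte-derived cells it was 24465 to 37223 CPM at day 2 and 26382 to 55272 at day 14. Their part in the Wfdc17 and Fn1 values was not tested. The 6 microglial markers summed to 14637 to 21561 CPM in sham, 817 to 12975 at day 2 and 10302 to 14118 at day 14. Day 2 replicate 3, with the highest Wfdc17, held only 58 microglia, and without it Wfdc17 rose by 4.80 (adjusted p = 0.00179) and Fn1 was called as before (6.14e-04).

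Fn1 was not called in endothelial or monocyte-derived cells. Endothelial cells held 357 ± 121 CPM in sham, 443 ± 179 at day 2 and 333 ± 89.2 at day 14 (n = 4 each), with log2 differences of 0.39 (SE 0.30, adjusted p = 0.389) and -0.10 (adjusted p = 1.00). The 1 member tested was not called at either time, where 13.3% and 0% of 5833 genes were called. DESeq2 called 9 genes at day 14, and 356 had an edgeR p under 0.05 before adjustment. Monocyte-derived cells had 986, 214, 116 and 407 CPM in sham, 627, 738, 142 and 164 at day 2 and 248, 249, 110 and 114 at day 14. The groups overlapped, and the day 14 against day 2 difference was -1.19 (SE 0.58, adjusted p = 0.455).

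Within each young brain group Fn1 in monocyte-derived cells followed the library code. The lower-numbered libraries averaged 986 (n = 1), 682 (n = 2) and 248 CPM (n = 2) in sham, day 2 and day 14, and the higher-numbered 246 (n = 3), 153 (n = 2) and 112 (n = 2). The 2 sets did not overlap in any of the 3 groups. With the library code as a term, the day 14 against day 2 difference was -0.98 (adjusted p = 0.0456). Endothelial Fn1 was split by the code in the same direction, without overlap in any group. The lower-numbered libraries averaged 535, 590 and 409 CPM in sham, day 2 and day 14, and the higher-numbered 297, 297 and 257. In microglia the sets averaged 224 and 19.7 CPM at day 2, overlapped at day 14 (58.8 and 80.9 against 71.7 and 26.0 CPM), and were at 0 in sham. Wfdc17 in monocyte-derived cells ran the other way, at 1157 against 2404 CPM at day 2 and 773 against 1054 at day 14. Chil3 in these cells was lower in the lower-numbered libraries at day 2 (1355 to 1738 against 2120 to 3420 CPM) and at day 14 (204 to 236 against 344 to 736), with no overlap. Arg1 did not overlap at day 14 (129 to 155 against 178 to 608 CPM) and overlapped at day 2. Saa3 overlapped at day 14, and at day 2 its sets lay side by side without overlap (243 to 481 against 482 to 534 CPM). With the library code as a term, Arg1, Chil3 and Saa3 were all called between day 14 and day 2, as they were without it. What the code stands for is not given in the sources used here.

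**Figure D5:**
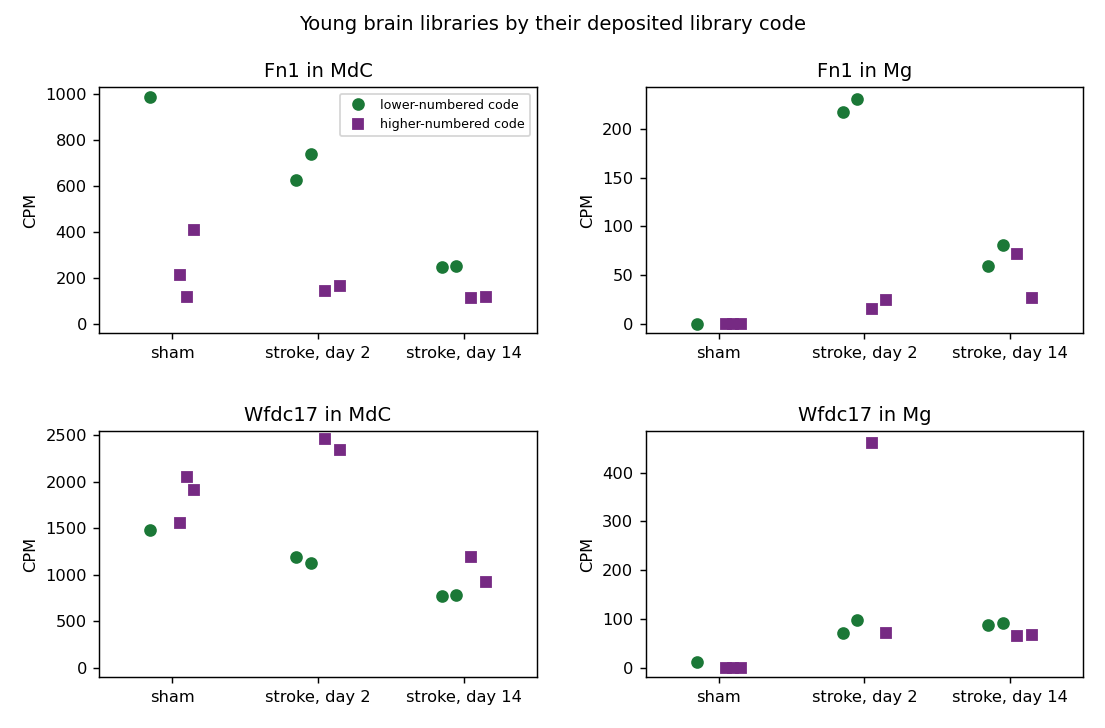
CPM of Fn1 and Wfdc17 per young brain library in monocyte-derived cells (MdC) and microglia (Mg), by group, with circles for lower-numbered and squares for higher-numbered library codes. In MdC the circles of Fn1 lie above the squares in all 3 groups, and those of Wfdc17 lie below them.

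The matrix partners of Fn1, a list of 12 receptors and matrix genes, were examined with it. In monocyte-derived cells at day 2 against sham, 2 of 10 tested rose and 1 fell, where 6.71% of all genes were called. Spp1, which encodes osteopontin, rose from 104 ± 87.4 to 7371 ± 4071 CPM (adjusted p = 8.72e-05) and Tgfbi, a matrix protein induced by TGF-beta, from 577 to 2334 CPM (adjusted p = 0.00167), while the integrin Itga4 fell by 1.56 (adjusted p = 0.00691). In microglia, where 31.4% of all genes were called at day 2, 2 of 8 rose, Spp1 from 2.95 to 11623 CPM (adjusted p = 8.17e-06) and Tgfbi from 21.2 to 380 CPM (adjusted p = 0.00144).

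Other genes of alternative activation were examined as a list of 18. In monocyte-derived cells at day 2 against sham, 3 of 11 tested rose and 1 fell (6.71% of all genes called), with a median of 0.81 against 0.29 over all genes. Tgm2, a transglutaminase, rose by 1.99 (adjusted p = 0.00410), Vegfa by 2.54 (0.0249) and the scavenger receptor Msr1 by 1.59 (0.0379), and the eosinophil-type ribonuclease Ear2 fell by 2.66 (0.0387). From day 2 to day 14, when Arg1 and Chil3 fell and 1.79% of all genes were called, 1 of 11 rose and 0 fell: Igf1, insulin-like growth factor 1, from 3.11 ± 2.92 to 184 ± 61.7 CPM (adjusted p = 0.00129). The median of the list was -0.52 against 0.04 over all genes. Microglial markers in these cells summed to 270 to 702 CPM at day 2 and 289 to 1891 at day 14, and their part in the Igf1 values was not tested. In microglia Igf1 rose from 2.10 CPM in sham to 27.0 at day 2 and 450 ± 169 at day 14. Of 18 classical activation genes, 2 of 17 tested rose in monocyte-derived cells at day 2 (Cd86 and Cxcl10) and 1 fell (Cybb), and from day 2 to day 14, 0 changed by this test. Against blood monocytes at day 2, where 24.7% of all genes were called, brain cells had 13 of 15 classical genes higher and 1 lower, and 5 of 8 of the other alternative genes higher and 2 lower.

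In aged mice Arg1 in monocyte-derived cells was at 0 in both sham libraries and at 4775, 4483 and 5535 CPM at day 2 after stroke (4931 ± 543, n = 3), above all 4 young day 2 libraries. The log2 difference from young was 1.74 (SE 0.35, adjusted p = 0.307). Saa3 was at 1085, 1592 and 2018 CPM, also above all 4 young day 2 libraries (log2 difference 1.85, SE 0.47, adjusted p = 0.570). Of the 5 members tested 0 were called, and 0% of 8167 genes were, with 154 at an unadjusted p under 0.05. DESeq2 called 13 genes, Arg1 among them (adjusted p = 4.26e-04), and edgeR called Arg1 without young replicate 2 (0.0180) or without the filter (0.0115). The tables of aged and young mice were deposited separately, so age and table cannot be told apart. All young mice were male, and the aged male library had 5535 CPM of Arg1 and 2018 of Saa3, the highest of the 3. With sex as a covariate the log2 differences were 1.85 (adjusted p = 0.943) and 2.47 (adjusted p = 0.385). Chil3 was at 3794 ± 415 CPM (adjusted p = 1.00) and Wfdc17 at 1801 ± 255 (log2 difference 0.02). Aged sham held Chil3 at 1488 and 1784 CPM in these cells, below aged day 2 (3731, 3413 and 4237). The single aged day 14 library had 1079 CPM of Chil3. Saa3 in aged sham was at 358 and 1155 CPM, which overlapped aged day 2. These differences were not tested.

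Of 1940 aged cells at day 2, 31.9% were in MdC1 and 30.1% in MdC2. Within MdC1, Arg1 was at 8213 to 11894 CPM over 3 libraries, against 2336 to 3502 in young mice. After thinning, 42.0% of 1545 aged cells had Arg1 and 23.0% had Saa3. In aged microglia 0 of 5 members were called at day 2 against aged sham, with 2.30% of 11096 genes called. Wfdc17 was at 74.2, 42.5 and 112 CPM against 0.604 and 20.5 in sham (log2 difference 3.87, SE 1.29, adjusted p = 0.136), and did not overlap sham.

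Across 28 pooled profiles of brain cell type by group in young mice, the genes most like each member were ranked by Pearson r of log2(CPM + 10) among 9123 genes, as a description with no test. The profiles share libraries, and depth differs between them. Arg1 was most like Pdpn (podoplanin, r = 0.805), F7 (coagulation factor VII, 0.768) and Nxpe5 (0.740). Chil3 was most like Hp (0.902), Clec4e (0.901), a receptor for damaged cells and mycobacterial lipids, and Sirpb1c (0.899). Saa3 was most like Ms4a8a (0.856), Mmp19 (0.797) and F13a1 (0.768). Wfdc17 was most like Il1b (0.933), Ccr1 (0.927) and Pirb (0.927), all high in brain granulocytes. Their time courses there were not all shared. Il1b and Ccr1 were at 17558 and 1125 CPM at day 2 and higher at day 14 (23372 and 1763), when Wfdc17 was lower. Pirb was highest at day 2 (848 CPM). Fn1 was most like the lipoprotein receptor Scarb1 (0.889), Fam129b (0.845) and Plcb1 (0.838). With a pseudocount of 1 CPM, 1 of the 3 genes was the same for Chil3, Fn1 and Wfdc17.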

How the data were processed

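Drop-seq libraries of mouse brain and blood were analysed from the per-cell tables of expected counts deposited by the authors, with their metadata naming cell types and subtypes. The deposited counts are fractional: between 0.00866% and 4.47% of the values above 0 were whole numbers, depending on the library. The submitters' processing notes name mm10 and Seurat. The aligner, the counting rule and the step that made counts fractional are not given in the sources used here. Deposited tables of young brain, aged brain and blood list different genes, so comparisons across them used shared genes.

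Counts were summed per library and deposited type, for libraries of at least 20 cells of the type, rounded, filtered with filterByExpr, scaled by TMM and tested two-sided with edgeR 4.0.16 (glmQLFit, glmQLFTest; limma 3.58.1), with Benjamini-Hochberg adjustment over all genes tested. Young brain groups were fitted together, as were young blood groups and the 4 brain groups at day 2 for aged mice. Comparisons of brain with blood used the compared groups alone. CPM came from unrounded sums, with sums under 0.001 counts set to 0. A group at 0 was set to a floor of 3 counts over the group. Intervals are exact binomial at 95%. Data were read with pandas 2.3.3 and numpy 2.4.6. The test was checked on simulated counts.

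The 6 genes and the lists were chosen with earlier results of these data known. Named beside the members were at most 4 genes per list and comparison with the smallest p, and 3 genes most like each member among genes of at least 50 CPM in 1 profile, leaving out predicted, mitochondrial, ribosomal, haemoglobin and antigen receptor genes. Alternatives were DESeq2 1.42.0, library size alone, no filter, values rounded up, at least 50 cells, the compared groups alone, the replicate number as a block, sex as a covariate, each library left out, thinning to 1000 counts, the library code as a term, and the subtype split without 1 library. The last 2 and the comparisons of brain granulocytes with sham were added after the data were seen.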

Additional observations from a re-analysis of the deposited data

Results flagged for a closer look

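In 6 groups of 4 libraries, 1 library stood far from the others by Dixon's criterion. These were 6 of 59 groups examined (10.2%), and chance flags about 1 in 20. Saa3 in BAM at day 2 was at 1944 CPM in replicate 4. Chil3 in granulocytes at day 14 was at 358 CPM in replicate 3, all from 1 cell. Arg1 in monocyte-derived cells at day 14 was at 608 CPM in replicate 3. Saa3 in blood monocytes at day 2 was at 1200 CPM in replicate 1, where 111 of 444 cells carried it. In microglia at day 2, Arg1 was at 158 CPM and Wfdc17 at 462 CPM in replicate 3, a library with 58 microglia.

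The single aged library of stroke at day 14 entered no comparison, and several of its values lay above aged sham. Those of monocyte-derived cells and microglia lay above both aged sham libraries, and those of BAM above the 1 aged sham library with enough BAM cells. Saa3 was at 9160 CPM in BAM, where 39 of 83 cells carried it, at 2038 CPM in monocyte-derived cells, where 8 cells carried it and 1 held 72.9% of the counts, and at 21.7 CPM in microglia, where 28.9 counts came from 1 cell. Wfdc17 was at 6792 CPM in BAM and 35.6 CPM in microglia. Arg1 was at 211 CPM in BAM, where 5 of 83 cells carried it and 1 held 59.1% of the 22.0 counts. Not all values were higher. In the 87 monocyte-derived cells of this library Arg1 was at 0 CPM, as in both aged sham libraries. Chil3 in these cells was at 1079 CPM, below both aged sham libraries (1488 and 1784 CPM).

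Wfdc17 at day 14 was above all sham libraries in young microglia (77.6 ± 13.9 CPM) and below all sham libraries in young monocyte-derived cells (914 ± 195 CPM against 1750 ± 273). The difference between the cell types was not tested.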

How the results depend on the processing

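Of 322 counts of members called under alternatives, 293 stayed within 1.5 times the reported count. Of 476 values of single members, 429 kept direction and side of the threshold, 34 passed it, 12 lost it and 1 reversed: Chil3 in blood neutrophils at day 14 was -0.24 (adjusted p = 0.946) without blood stroke day 14 replicate 2. Smaller moves are not listed, as between day 14 and day 2 in monocyte-derived cells. There the Arg1 call was lost in some settings and Fn1 was called with the library code as a term, as given above. In the following comparisons the count of members called moved by more. Without the filter on low counts it was 2 for BAM at day 2 (Arg1 and Saa3; 0 reported), 1 for BAM at day 14 (0), 1 for DC at day 14 against day 2 (0), 3 for blood monocytes at day 14 (0), 1 for blood neutrophils at day 2 (0) and 3 at day 14 (1), 2 for aged microglia (0), 2 for aged against young (0), 1 for brain against blood monocytes (2) and 3 for granulocytes against blood neutrophils (0). With DESeq2 it was 1 for DC at day 14 against day 2, 3 for blood monocytes at day 14 and 1 for aged against young. DC at day 14 against day 2 had 1 with library size alone and 1 with the library code as a term. BAM at day 2 had 2 with at least 50 cells (Arg1 and Saa3), and microglia at day 2 had 1 with only the compared groups, when Fn1 did not pass the filter. With single libraries left out, it ranged from 2 to 4 for microglia at day 2, 0 to 1 for microglia at day 14 against day 2, 0 to 1 for BAM at day 2, 0 to 1 for blood monocytes at day 14, 0 to 1 for aged against young and 1 to 2 for brain against blood monocytes. Except where a setting changes the genes or libraries tested, the cause was not tested.

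Libraries of the same replicate number deviated together in part. In monocyte-derived cells 5 of 12 same-number pairs did so (r over 0.1, mean 0.181, range -0.164 to 0.825), and the mean over other pairs was -0.0611. That second mean is no separate evidence, since deviations within a group sum to about 0. In the young brain stroke groups, replicates 1 and 2 have lower-numbered and 3 and 4 higher-numbered library codes. Replicate number and library code are thus not separate there. In DC the same-number mean was 0.157, with a range of -0.118 to 0.804. With the replicate number as a block, 1 member was called in blood monocytes at day 14 (Saa3, adjusted p = 0.0166), and in microglia Saa3 was called beside Fn1 and Wfdc17 at day 2 (2.66, adjusted p = 0.0436) and at day 14 (3.01, adjusted p = 0.0283). The block changed no other call of a member. Over all genes, it moved calls from 145 to 469 for monocyte-derived cells at day 14 against day 2, 39 to 111 for DC at day 14 against day 2, 35 to 2 for BAM at day 2, 17 to 31 for blood monocytes at day 14 and 0 to 1 for endothelial cells at day 14.

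Other settings moved the count of all genes called by over 1.5 times. DESeq2 gave 386 for monocyte-derived cells at day 14 against day 2 (145), 116 for DC at day 14 against day 2 (39), 87 for DC at day 2 (44), 33 for blood monocytes at day 14 (17), 466 for aged microglia (255), 329 for granulocytes against blood neutrophils (181), 13 for aged against young (0), 9 for endothelial cells (0) and 2 for BAM (1) at day 14. Library size alone gave 355 for monocyte-derived cells at day 2 (542), 3425 for microglia at day 14 against sham (1544) and 1157 against day 2 (703). The library code gave 348 and 109 in the monocyte-derived and DC comparisons of day 14 with day 2, and 2 for endothelial cells. Only the compared groups gave 426 for microglia at day 14 against day 2, 59 for DC at day 14 against day 2, 3 for BAM at day 14 and 0 for aged microglia. No filter gave 124 for DC at day 2 and 60 at day 14 against day 2, 19 and 14 for BAM at day 2 and day 14, 6 for endothelial cells at day 14, 13 and 97 for blood monocytes and 32 and 487 for blood neutrophils at day 2 and day 14, 393 for aged microglia, 32 for aged against young, 45 for granulocytes at day 2 and 706 against blood neutrophils. Values rounded up gave 75 for DC at day 2 and 321 for granulocytes against blood neutrophils. At least 50 cells gave 2 for BAM at day 14, and sex as a covariate gave 3 for aged against young. Left-out libraries also moved counts, down to 45 for monocyte-derived cells at day 14 against day 2. At 1000 counts per cell the share of day 2 monocyte-derived cells with Arg1 was 31.5%, against 22.7% at 500. A technical batch term was not run, since the metadata name no batch. At day 2 Arg1 rests on 113 counts in BAM and 22.0 in microglia of young mice.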

Other observations

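Arg1 counts of the brain code Tc came mostly from 1 deposited subtype whose own markers go against the name T cells, an observation made after the values were seen. Subtype Tc6 held 226 of 2126 cells of the code Tc and 63.6 of its 77.9 Arg1 counts (81.7%) over all groups. The exception was aged stroke at day 14, where Tc6 held 33.5% and Tc4 66.5% of 2.97 counts. Pooled over libraries, Tc6 had 0 CPM of Arg1 in young sham, 864 at day 2 and 415 at day 14, and in aged mice 552 in sham, 370 at day 2 and 81.8 at day 14. In aged sham brains, Arg1 was thus read in Tc6 while monocyte-derived cells were at 0. Il1rl1, the receptor for interleukin 33, was at 1567 CPM in Tc6 in young sham, 552 at day 2 and 1192 at day 14. Areg, the growth factor amphiregulin, was at 541, 296 and 2110 CPM, and Gata3, a transcription factor of type 2 lymphocytes, at 336, 307 and 612. Cd3e, a T cell receptor chain, was between 0 and 81.8 CPM in Tc6. These are pooled levels from few cells, with no test.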
